A study of Homo sapiens with 3 samples.

Results

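The 2 libraries in which circRAPGEF5 was targeted were set against each other, gene by gene. Of the 15625 genes listed, 11216 had a mean level of at least 1 FPKM over the 3 libraries of the series, and these are the genes compared. FPKM counts the fragments of a gene per kilobase of its length, relative to all reads that a library gave. The difference given for each gene is log2(FPKM + 1) in knockdown library 1 minus that in knockdown library 2, so a positive value means a higher level in library 1. The control library shows only where a gene lay without the knockdown.

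All 3 libraries came from HCT116, a human colorectal cancer cell line. They were labelled genotype MT, and were collected 36 or 48 h after an shRNA system from Sigma-Aldrich was introduced. The groups were sh_control (1 library) and sh_circRAPGEF5 (2 libraries, replicates 1 and 2). Neither the time of each library nor the origin of the replicates (another hairpin, another culture or a repeat) is stated in the labels. A time, a hairpin and a culture therefore cannot be told apart here. With 1 library on each side there was no test between samples. Intervals below cover counting error only.

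Circular RNAs are formed when an exon end is joined back to an upstream exon start, and they lack a poly(A) tail. These libraries were made from polyadenylated RNA, so the circle itself was not measured. A short hairpin RNA is cut by the cell into a small guide RNA that pairs with its target. As background, such guides can also lower other transcripts whose 3′ UTR pairs with the first bases of the guide, in the manner of a microRNA. The sources used here give no hairpin sequence, so no match to them was tested.

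Depth was alike: library 2 held 1.06 times the reads of library 1. Colon epithelial genes were present, but VIL1, the villin of the brush border, and CDH17, an intestinal cadherin, were at or near 0 in all 3 libraries. Keratin 8 (KRT8) stood at 1031 FPKM in the control, 1084 in library 1 and 1694 in library 2. Most markers of other cell types were low in all 3 libraries. Of 12 fibroblast markers 6 were listed, summing to 22.3, 15.5 and 10.5 FPKM in the control, library 1 and library 2. FAP was at 0 in both knockdown libraries and COL3A1 at 0 in library 1. ACTA2, a smooth muscle actin on the same list, was at 8.28, 10.7 and 1.77 FPKM, and so 2-fold or more higher in library 1. The highest fibroblast marker in the control stood at 13.4 FPKM. The 9 leukocyte markers listed summed to 6.10, 5.48 and 11.5 FPKM, with PTPRC, the pan-leukocyte gene, at 0 in the control and in library 1. The highest value among these 9 was 2.59, 3.55 and 7.50 FPKM. Of the 3 leukocyte markers past the filter, 1 was 2-fold or more higher in library 2. The 5 endothelial markers listed summed to 17.8, 23.5 and 21.6 FPKM, and the highest value among them was 13.2, 12.3 and 15.6 FPKM. Their part in the results was not tested. In such bulk RNA, fewer cells of a kind and less RNA per cell cannot be told apart.

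The knockdown libraries differed by 2-fold or more in 1008 genes (8.99% of those compared). Of these, 495 (4.41%) were higher in library 1 and 513 (4.57%) higher in library 2. The median difference over all genes was -0.02 and the median size of the difference was 0.34. Differences of 4-fold or more were found in 26 genes in favour of library 1 and 28 in favour of library 2. The split was thus nearly even. FPKM is scaled to each library's own total, so a shift of a whole library would not show in it. Every count of genes beyond 2-fold is on the log2(FPKM + 1) scale, on which a low gene needs a wider FPKM ratio to be counted.

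Counting error was smaller than these differences. The exact 95% counting interval excluded 0 for all 1008 genes, and for 592 of them (298 higher in library 1, 294 in library 2) it lay wholly beyond 2-fold. These genes were selected by the size of the same difference, so an interval without 0 was largely set by the selection. On the log2(FPKM + 1) scale the spread did not narrow where reads were plentiful. Among 939 genes with a mean of 1 to 2 FPKM the SD of the difference was 0.55, and among 548 genes at 100 FPKM or more it was 0.58. Over the same classes the median half-width of the counting interval narrowed from 0.24 to 0.055. The added 1 shrinks the differences of low genes most, so the SDs of low and high classes are not fully comparable. With 0.1 added instead of 1, the SD over all genes was 0.709 rather than 0.585.

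**Figure D1:**
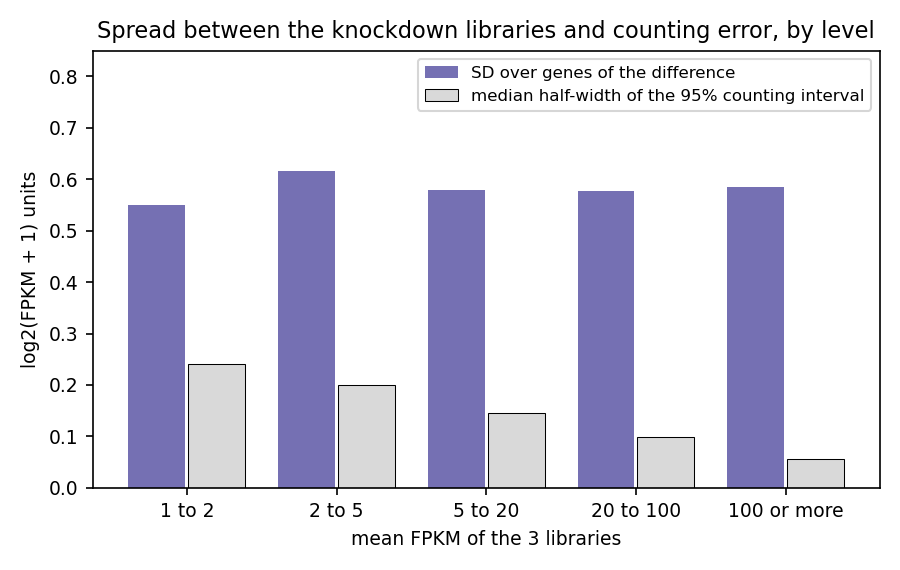
The SD over genes of the difference between the knockdown libraries (filled bars) and the median half-width of the 95% counting interval (pale bars), in log2(FPKM + 1) units, by class of mean FPKM over the 3 libraries. The SD lies between 0.55 and 0.62 in every class, while the counting error narrows from 0.24 to 0.055. The added 1 shrinks the differences of the low classes most.

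**Figure D2:**
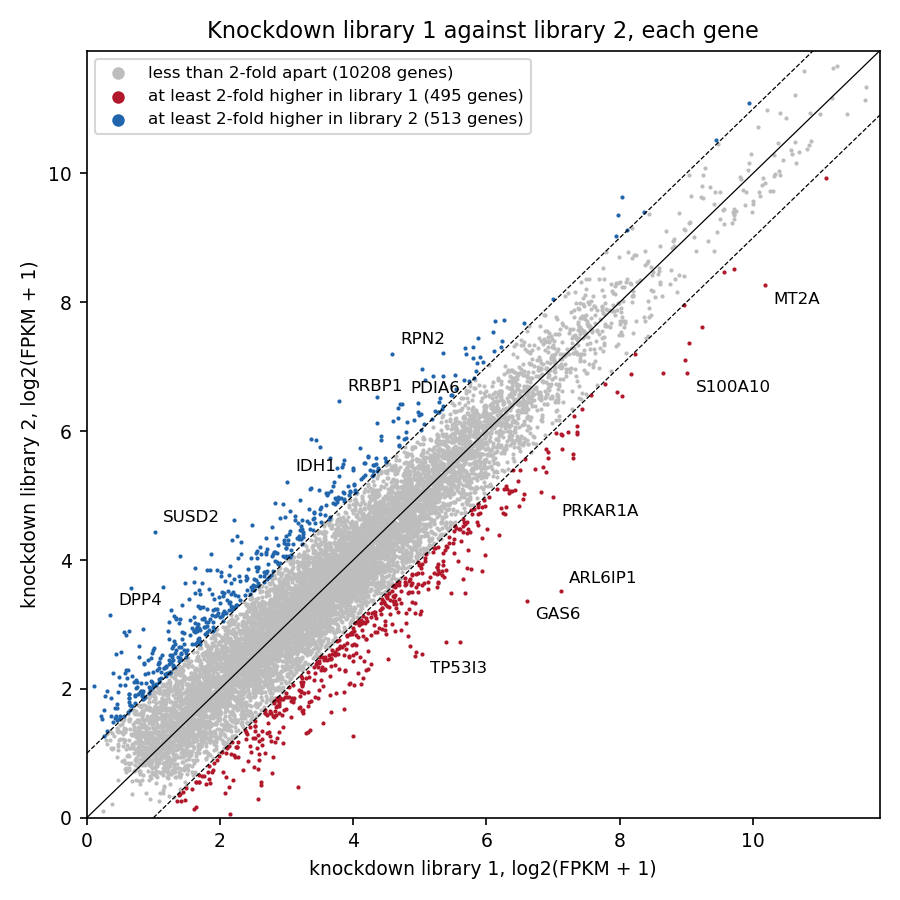
Level of each of 11216 genes in knockdown library 1 (horizontal axis) and knockdown library 2 (vertical axis), as log2(FPKM + 1). Dashed lines mark 2-fold, with 495 genes beyond the line on the library 1 side and 513 on the library 2 side.

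The gene farthest toward library 1 was ARL6IP1, on chromosome 16 (18791667 to 18801678, GRCh38, minus strand), which encodes a membrane-shaping protein of the endoplasmic reticulum. It stood at 194 FPKM in the control, 138 in library 1 and 10.5 in library 2. The difference was 3.60 (counting interval 3.19 to 4.02), and library 2 was the library away from the other two. GAS6, the secreted ligand of the TAM receptor kinases, followed another order. It was at 21.3 FPKM in the control, 96.7 in library 1 and 9.33 in library 2, a difference of 3.24 (3.05 to 3.44), with the control in between.

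Several other leading genes were above the control in library 1 and below it in library 2. TP53I3, a p53-inducible oxidoreductase, was at 15.5 FPKM in the control, 31.7 in library 1 and 4.81 in library 2 (difference 2.50). LAMB3, the beta chain of the basement membrane protein laminin-332, was at 18.1, 50.5 and 10.3 FPKM in the same order (2.19). S100A10, a partner of annexin A2, was at 260.0, 517 and 119 FPKM (2.11). All these genes had the control between the knockdown libraries.

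For other genes on the library 1 side, library 1 and the control were close and library 2 was low. PRKAR1A, a regulatory subunit of protein kinase A, stood at 97.1 FPKM in the control, 126 in library 1 and 30.4 in library 2 (difference 2.02). LANCL1, a glutathione-binding protein, was at 24.2, 29.9 and 4.95 FPKM (2.37). CPT1B, the muscle form of carnitine palmitoyltransferase, was at 22.6, 22.1 and 4.55 FPKM (2.06). RRAGC, a RAG GTPase that signals amino acids to mTORC1, was at 9.02, 11.7 and 2.11 FPKM (2.03).

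On the other side, SUSD2, a cell surface protein, was farthest toward library 2. Its gene lies on chromosome 22 (24181259 to 24189110, GRCh38, plus strand). It was at 2.67 FPKM in the control, 1.03 in library 1 and 20.6 in library 2, a difference of -3.41 (counting interval -3.70 to -3.09). CDKN1C, the cell cycle inhibitor p57, had the same order with 2.31, 1.65 and 15.8 FPKM (-2.66). DPP4, the cell surface peptidase CD26, was at 1.24, 0.271 and 7.84 FPKM (-2.80). For SUSD2, CDKN1C and DPP4 library 2 was thus the library farther from the control on the log2(FPKM + 1) scale, with library 1 below the control.

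For other genes on this side, library 1 was well below the control and library 2 was nearer to it. RPN2, a subunit of the oligosaccharyltransferase that attaches N-glycans, stood at 172 FPKM in the control, 22.9 in library 1 and 146 in library 2 (difference -2.62, interval -2.72 to -2.52). RRBP1, a ribosome-binding protein of the endoplasmic reticulum, was at 54.5, 12.9 and 87.6 FPKM (-2.68). IFI30, a lysosomal thiol reductase, was at 64.2, 9.86 and 57.3 FPKM (-2.42).

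Metabolic and cell cycle enzymes were among these genes. IDH1, the cytosolic isocitrate dehydrogenase, stood at 54.9 FPKM in the control, 7.02 in library 1 and 36.1 in library 2 (difference -2.21). SDHB, the iron-sulfur subunit of succinate dehydrogenase, was at 90.4, 31.8 and 124 FPKM (-1.93). CDK6, a kinase of the G1 phase, was at 16.6, 3.78 and 19.8 FPKM (-2.12). In each of these, library 1 was the lowest of the 3.

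EIF3CL, SERF1B and SMIM11A also led, but each has a near-identical copy in the genome. EIF3CL was at 0.994, 0.592 and 10.8 FPKM in the control, library 1 and library 2, and its copy EIF3C, named here only for that reason, was at 8.06, 8.29 and 22.1 FPKM. The sources used here name no counting program, so the division of reads between such copies is uncertain.

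**Figure D3:**
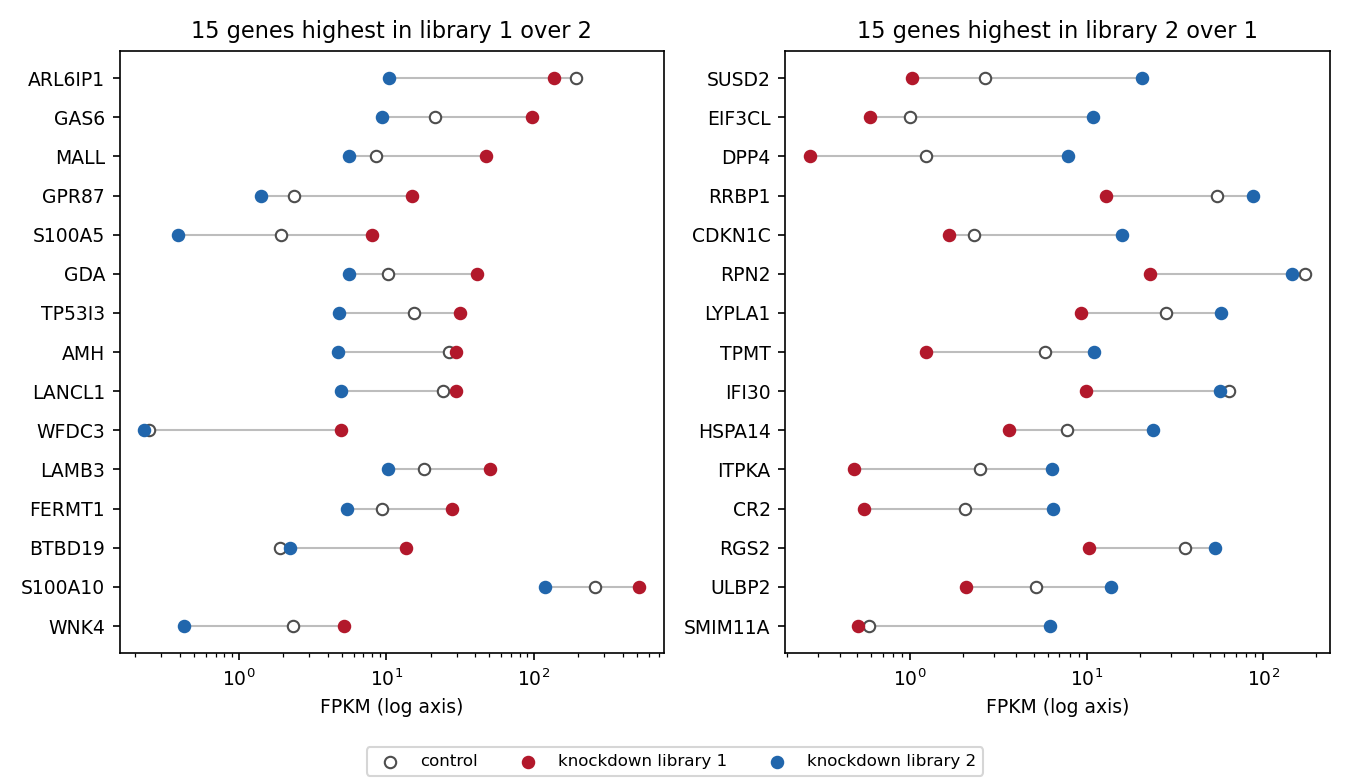
FPKM on a log axis of the 15 genes with the largest difference in favour of library 1 (left) and of library 2 (right). Open circles are the control, red points library 1 and blue points library 2; for ARL6IP1 and RPN2 the control is the highest of the 3, while for GAS6 and SUSD2 it lies between the knockdown libraries.

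Counted over all called genes, the control lay between the knockdown libraries in 732 of 1008 (72.6%), against 30.7% of all genes compared. A wide gap leaves more room for a value in between, so this share describes the called genes only. Among the 495 genes higher in library 1, library 2 was the one farther from the control in 325. Among the 513 genes higher in library 2, library 1 was farther in 306. In both sets, then, the lower library was more often the one away from the control.

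In FPKM itself, the widest gaps were in abundant genes. S100A6, a small calcium-binding protein, stood at 941 FPKM in the control, 2187 in library 1 and 969 in library 2, a gap of 1218. MT2A, a metal-binding metallothionein, was at 611, 1165 and 306 FPKM. FTL, the ferritin light chain that stores iron, was at 2214, 979 and 2175 FPKM, a gap of -1196. RPS2, a protein of the small ribosomal subunit, was at 4167, 1748 and 3080 FPKM. FTL and RPS2 have processed copies in the genome, so their counts are uncertain.

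The letters of the 3′ UTR were read next, after the differences between the libraries had been seen. GENCODE v29 (GRCh38) gave a 3′ UTR for 10919 of the genes. Each run of 7 letters held by at least 300 of these genes was ranked by the median difference of its genes, on the transcribed strand only. Of 12051 such runs, the 2 with the lowest medians overlap by 6 letters. They are ATCAAGA, with a median of -0.15 over 1112 genes, and TCAAGAA, with -0.14 over 1481 genes. The next lowest run stood at -0.09.

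The highest median belonged to GTCTGAC, with 0.22 over 641 genes. TGCTTCA and TTGCTTC, which also overlap by 6 letters, followed at 0.12 over 1645 and 1658 genes. The latter pair was only just above the next run, at 0.11. Over all 10919 genes the median was -0.02. These runs were chosen by the same differences that are given for them, so their medians are a description with no test.

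To show how such runs sit in the leading genes, a stretch of the 3′ UTR is given for 4 genes that were lower in library 1 and 4 that were lower in library 2. Capitals mark the run or the joined pair of runs, and all are written as transcribed, from GENCODE v29.
DPP4: acactcaaATCAAGAAacttaagg
RPN2: actgaatgTCAAGAAaaggagtc
TPMT: ataacagaATCAAGAAacaaattt
CDK6: aaaaactaATCAAGAAtataaacc
ARL6IP1: aaaaaactGTCTGACttcgtgaa
MALL: ctccatgaGTCTGACatctcgga
PRKAR1A: tgtctgtgTTGCTTCAaattggtc
TRNP1: agatgtcaTTGCTTCAagtctaac
On GRCh38 the DPP4 stretch is chr2:161993160-161993183 (minus strand) and the RPN2 stretch chr20:37241344-37241366 (plus strand). The TPMT stretch is chr6:18129821-18129844 and the CDK6 stretch chr7:92606182-92606205, both on the minus strand. The ARL6IP1 stretch is chr16:18792808-18792830 and the MALL stretch chr2:110084647-110084669, both on the minus strand. The PRKAR1A stretch is chr17:68531621-68531644 and the TRNP1 stretch chr1:27000269-27000292, both on the plus strand.

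These genes did not all lie on the same side of the control. DPP4, with the levels given above, was farther from the control in library 2 than in library 1 on the log2(FPKM + 1) scale. TPMT, which methylates thiopurine drugs, stood at 5.84 FPKM in the control, 1.22 in library 1 and 11.02 in library 2. MALL, a membrane protein of lipid rafts, was at 8.57, 47.6 and 5.61 FPKM, so that its difference of 2.88 came mostly from a high level in library 1. TRNP1, a nuclear protein, was likewise at 14.8, 60.4 and 13.2 FPKM. Of the 25 genes farthest toward library 2, 24 had a 3′ UTR and 9 of those held ATCAAGA or TCAAGAA, while 4 held GTCTGAC or a run of the TGCTTCA pair. Of the 25 farthest toward library 1, 10 held GTCTGAC or a run of the TGCTTCA pair and 1 held ATCAAGA or TCAAGAA. Among all genes with a 3′ UTR, 18.5% held a run of the first kind and 26.4% one of the second, and the runs were chosen from these same differences.

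Over all genes, ATCAAGA or TCAAGAA was held by 33.1% of the 495 genes with a 3′ UTR that were at least 2-fold lower in library 1. It was held by 10.2% of the 481 that were at least 2-fold lower in library 2, and by 18.5% of all genes with a 3′ UTR. The joined run ATCAAGAA had a median difference of -0.24 over 403 genes. Genes with 2 or more matches of the same run had a median of -0.19 (382 genes) and those with 1 match -0.12 (1641 genes). Both runs were chosen by these same differences, so these shares and medians are a description with no test. Against the control, which both comparisons share, the median of genes holding either run was -0.19 for library 1 and -0.08 for library 2. Over all genes with a 3′ UTR the median against the control was -0.04 for library 1 and -0.04 for library 2.

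GTCTGAC showed the opposite side. It was held by 14.97% of the genes at least 2-fold lower in library 2, 2.22% of those at least 2-fold lower in library 1 and 5.87% of all. Against the control, the median of its genes was -0.34 for library 2 and -0.06 for library 1, beside -0.04 for each library over all genes. TGCTTCA or TTGCTTC was held by 37.2% of the genes lower in library 2, 17.98% of those lower in library 1 and 23.1% of all. Against the control, the median of these genes was -0.16 for library 2 and -0.04 for library 1. As with the first pair, the runs were chosen by the differences between the libraries, so these values are no separate result.

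Longer 3′ UTRs hold any run more often, so the genes were also split into 3 equal classes of 3′ UTR length. In the shortest class, genes with ATCAAGA or TCAAGAA had a median difference of -0.34 (137 genes) and those without it -0.03. In the longest class the values were -0.10 (1413 genes) and 0.09. For GTCTGAC the medians with and without the run were 0.33 (30 genes) and -0.04 in the shortest class, and 0.19 (471 genes) and -0.01 in the longest. The runs were chosen by these same differences, so the side on which their genes lie within a class is no separate result. The difference itself had a Pearson correlation of 0.03 with the log2 length of the 3′ UTR, across genes, which are not independent replicates.

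Matches in the coding part alone, with none in the 3′ UTR, went with medians of -0.11 for ATCAAGA or TCAAGAA (2990 genes) and 0.09 for GTCTGAC (678 genes). For TGCTTCA or TTGCTTC the value was -0.02 (1743 genes), the same as for all genes. Matches in the 5′ UTR alone went with a median of 0.12 for ATCAAGA or TCAAGAA (105 genes), on the other side from those in the 3′ UTR, with 0.15 for GTCTGAC (101 genes) and -0.06 for the TGCTTCA pair (183 genes). Of the 6987 genes with none of these runs in the 3′ UTR, 538 (7.70%) were at least 2-fold apart, 246 higher in library 1 and 292 in library 2, against 8.99% of all genes compared. Their SD was 0.56, against 0.59 over all genes compared.

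**Figure D4:**
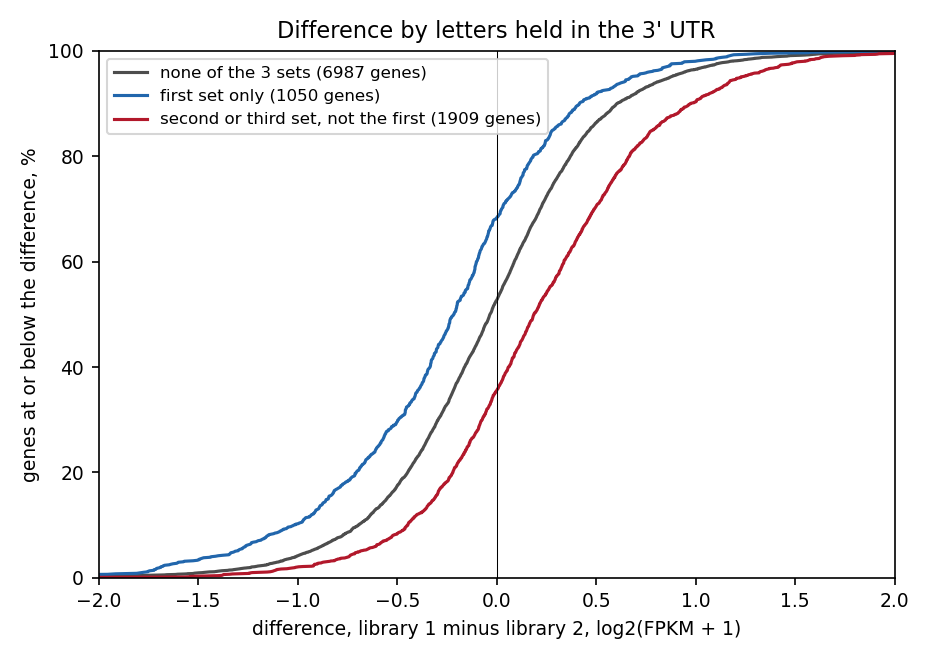
Cumulative share of genes (vertical axis, %) against the difference between library 1 and library 2 (horizontal axis, log2(FPKM + 1)), by the runs held in the 3′ UTR. All runs shown were chosen by these same differences. The first set is ATCAAGA or TCAAGAA, the second GTCTGAC and the third the TGCTTCA pair; 1050 genes with the first set only have a median of -0.21, 1909 with the other two but not the first 0.19, and 6987 with none -0.03.

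RAPGEF5, the host gene of the circle and an exchange factor for RAP GTPases, was itself lower in library 1. It stood at 1.98 FPKM in the control, 1.33 in library 1 and 2.73 in library 2, a difference of -0.68 (counting interval -0.81 to -0.54). In FPKM, library 2 was 2.05 times library 1, but on the log2(FPKM + 1) scale the gene fell short of 2-fold. Its transcript RAPGEF5-201 holds ATCAAGAA in exon 2, which is 5′ UTR, starting at base 6 of the exon. A match to either run of 7 letters is common: 46.9% of the genes with a 3′ UTR held ATCAAGA or TCAAGAA somewhere in the transcript. The joined ATCAAGAA was counted in 3′ UTRs only, where 3.69% of these genes held it. How many genes hold the joined run in the 5′ UTR was not counted. The stretch is shown because it lies in the targeted gene.
RAPGEF5: actctATCAAGAAgaatatct
It is chr7:22318017-22318037 (GRCh38, minus strand), and the capitals mark the run. The same transcript holds ATCAAGA in exon 26 as well, once in the coding part and once in the 3′ UTR. GTCTGAC and the TGCTTCA pair are not among its letters. Which exons form the circle is not stated in the labels.

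The gene lists are described by their counts and medians, beside a median of -0.02 and 2-fold calls in 4.41% and 4.57% of all genes. They were chosen with earlier results of these data known, so their medians are a description with no test. Lists are ranked among those with at least 10 genes compared.

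Target genes of p53, the transcription factor that answers DNA damage and other stress, had the highest median toward library 1 among these. It was 0.65 over 26 genes, of which 23 were higher in library 1, 6 of them by 2-fold or more. BTG2, an antiproliferative gene, stood at 24.7 FPKM in the control, 76.9 in library 1 and 25.3 in library 2. ZMAT3, an RNA-binding protein, was at 5.02, 21.2 and 6.93 FPKM, and BBC3, the pro-apoptotic protein PUMA, at 20.9, 30.4 and 10.4 FPKM. For BTG2 and ZMAT3 library 2 lay near the control, whereas for BBC3 and TP53I3 it lay below it.

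The list was not uniform. PLK2, a kinase induced by stress, was 2-fold or more higher in library 2, with 41.5 FPKM in the control, 43.3 in library 1 and 93.3 in library 2. GDF15, a stress cytokine, was at 57.4, 162 and 253 FPKM, above the control in both. PLK2 and GDF15 were chosen after their values were seen, as the largest exceptions.

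Growth factor readouts leaned the same way, with less uniformity. MEK-ERK target genes had a median of 0.33 over 14 genes, with 11 higher in library 1 and 2 of these by 2-fold or more. Among the 7 members with none of the 3′ UTR runs above it was 0.08. FOSL1, an AP-1 subunit, stood at 19 FPKM in the control, 163 in library 1 and 61.2 in library 2. CCND1, cyclin D1, was at 114, 287 and 117 FPKM, and DUSP6, a phosphatase that acts on ERK, at 17.3, 67.7 and 38.4 FPKM. FOSL1 and DUSP6 were thus above the control in both libraries but farther in library 1, and CCND1 was above it almost only in library 1.

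Immediate-early genes, which respond first to stimulation, had a median of 0.45 over 17 genes with 14 higher in library 1. EGR1 stood at 17.3 FPKM in the control, 41.6 in library 1 and 17.4 in library 2. FOS, an AP-1 subunit, was at 46.8, 32.5 and 11.6 FPKM, so that both knockdown libraries were below the control. The list therefore did not share a single position against the control.

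Endoplasmic reticulum stress genes, which include folding enzymes of secreted proteins, had the lowest median among lists of that size, -0.69 over 19 genes. Of these 14 were higher in library 2, 3 by 2-fold or more, and none was 2-fold higher in library 1. PDIA6, a disulfide isomerase, stood at 48.9 FPKM in the control, 25.7 in library 1 and 84.9 in library 2. SDF2L1, an endoplasmic reticulum chaperone component, was at 24.5, 24.6 and 72.7 FPKM, and HYOU1, a chaperone of the same compartment, at 72.4, 53.2 and 106 FPKM. PDIA6 and HYOU1 had the control in between, and SDF2L1 differed from the control in library 2 only.

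Heat shock chaperones of the cytosol and mitochondria had a median of -0.50 over 19 genes, with 16 higher in library 2 and 3 by 2-fold or more. HSP90AA1, the inducible HSP90, stood at 667 FPKM in the control, 697 in library 1 and 1463 in library 2. BAG3, a co-chaperone, was at 32.2, 39.3 and 80.2 FPKM. HSPB1, the small heat shock protein HSP27, was at 473, 275 and 558 FPKM. The high library was library 2 in each.

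WNT target genes had a median of -0.61 over 12 genes, and all 12 were higher in library 2, 3 of them by 2-fold or more. AXIN2, the negative feedback regulator of WNT signalling on chromosome 17, stood at 18.2 FPKM in the control, 2.08 in library 1 and 7.15 in library 2. EPHB2 and EPHB3, ephrin receptors of the intestinal crypt, were at 4.52, 2.25 and 5.68 FPKM and at 2.26, 0.672 and 3.38 FPKM. AXIN2 was below the control in both libraries, whereas the ephrin receptors were below it in library 1 and above it in library 2.

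Epithelial and intestinal genes also lay on the library 2 side, with a median of -0.45 and all 10 genes higher there. CA2, a carbonic anhydrase, was the only 1 of these beyond 2-fold, at 8.05 FPKM in the control, 10.4 in library 1 and 23.0 in library 2. KRT19, a keratin of simple epithelia, was at 563, 622 and 1079 FPKM. CDX2, the intestinal transcription factor, was at 4.24, 3.40 and 5.61 FPKM.

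Proliferation lists leaned to library 2 by smaller amounts. The median was -0.30 over 24 genes of DNA replication and S phase, with MCM6 and MCM3, subunits of the replicative helicase, beyond 2-fold. MCM6 stood at 42.0 FPKM in the control, 17.0 in library 1 and 44.4 in library 2, and MCM3 at 90.4, 39.7 and 83.2 FPKM. The 15 members of that list with none of the 3′ UTR runs had a median of -0.06. G2 and mitosis genes had a median of -0.29 over 23 genes. Against the control their median was -0.69 for library 1 and -0.41 for library 2, so it was below the control in both. Ribosome biogenesis genes had -0.29 over 24 genes, 22 of them higher in library 2, while cytosolic ribosomal proteins had 0.32 over 28 genes.

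Metabolic lists were mixed. The median was -0.37 over 28 genes of hypoxia and glycolysis, led by ALDOC, an aldolase, at 25.2 FPKM in the control, 11.6 in library 1 and 46.8 in library 2. Cholesterol synthesis genes had -0.37 over 20 genes. Within that list HMGCS1, a synthase early in the pathway, went against the median, at 9.77, 14.7 and 6.25 FPKM. Oxidative phosphorylation genes had a median of 0.14 over 27 genes, and SDHB alone among them was 2-fold apart.

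Other lists separated the libraries little. The components of the RAS-RAF-MEK-ERK cascade had a median of -0.07 over 26 genes, with none beyond 2-fold on the log2(FPKM + 1) scale. Intron-retaining and unproductive RNA readouts had 0.00 over 14 genes. Lysosome genes had -0.02 over 24 genes, but -0.32 over the 15 with none of the 3′ UTR runs. EMT and invasion genes had a median of 0.31 over 19 genes but were split, with 4 beyond 2-fold toward library 1, LAMB3 and S100A4 among them, and 2 toward library 2 (TGM2 and SNAI1). SNAI1 falls outside the rule for named genes. The 13 members of that list with none of the 3′ UTR runs had a median of 0.04.

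**Figure D5:**
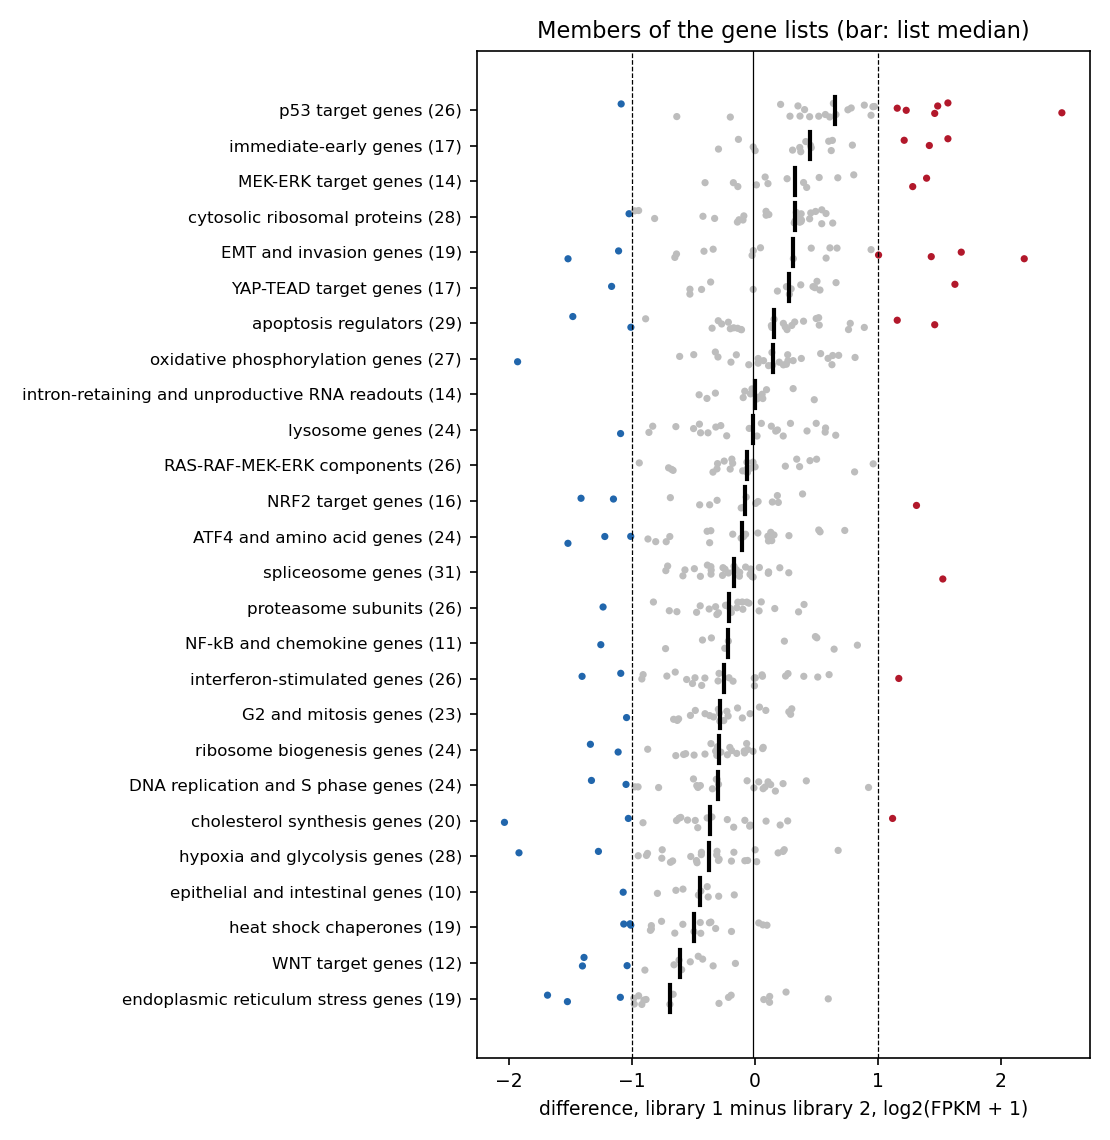
Each point is a member of a gene list, placed by its difference between library 1 and library 2 in log2(FPKM + 1), and black bars are list medians; lists with at least 10 genes compared are drawn, with that number in parentheses. Members at least 2-fold higher in library 1 are red and those at least 2-fold higher in library 2 are blue; among these lists p53 target genes lie farthest toward library 1 (median 0.65) and endoplasmic reticulum stress genes farthest toward library 2 (-0.69).

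KEGG pathway names deposited with the table were carried by 4668 of the 11216 genes, and 307 names had at least 10 genes. Their medians ran from -0.60 to 0.27. Of these names 74 had a median above 0 and 233 below 0, and genes are shared between names. Some wider names lay nearer 0 than the lists above. Protein processing in endoplasmic reticulum had a median of -0.11 over 151 genes, and the Wnt signaling pathway -0.16 over 102 genes. DNA replication, given below, did not lie nearer 0 than its list.

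The lowest median belonged to Maturity onset diabetes of the young, a set of pancreatic and gut transcription factors. It was -0.60 over 10 genes, 9 of them higher in library 2 but none by 2-fold on the log2(FPKM + 1) scale. In FPKM, NKX6-1 and BHLHA15, both transcription factors, were 2.27 and 2.09 times as high in library 2. HES1, a Notch target, stood at 8.10 FPKM in the control, 4.30 in library 1 and 8.30 in library 2. HHEX, a homeobox factor, was at 4.73, 5.86 and 10.7 FPKM.

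Glycan assembly made up 4 of the 8 lowest names. The lacto and neolacto series of glycosphingolipids had a median of -0.56 over 15 genes, keratan sulfate -0.54 over 10 genes, the globo and isoglobo series -0.49 over 10 genes and mucin type O-glycans -0.43 over 17 genes. With a mean of at least 5 FPKM the globo and isoglobo series kept 4 genes, with a median of 0.19. These names share members such as ST3GAL1 and B3GALNT1. ST3GAL4, a sialyltransferase, stood at 5.03 FPKM in the control, 1.74 in library 1 and 6.32 in library 2. GALNT14 and GALNT6, which start mucin-type O-glycans, were at 2.75, 1.69 and 6.38 FPKM and at 5.79, 2.39 and 7.57 FPKM. Against that direction, C1GALT1C1, the chaperone of the enzyme for the next sugar, was at 11.5, 15.1 and 5.46 FPKM, and B3GNT3 at 6.03, 9.80 and 2.68 FPKM.

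The other low names were arachidonic acid metabolism (-0.38 over 17 genes), Type I diabetes mellitus (-0.36 over 15 genes) and DNA replication (-0.33 over 35 genes). GPX8, a peroxidase of the endoplasmic reticulum, led the first with 16.1 FPKM in the control, 3.05 in library 1 and 13.03 in library 2. PTGS1, cyclooxygenase-1, was at 0.561, 0.369 and 2.40 FPKM. RFC1, the large subunit of the clamp loader, was at 22.7, 13.5 and 29.9 FPKM and led the replication genes together with MCM6 and MCM3. The wider name Cell cycle did not lean to library 2: its median was 0.03 over 116 genes, 60 higher in library 1 and 56 in library 2.

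The highest names had smaller medians. Steroid hormone biosynthesis had 0.27 over 12 genes, with SRD5A1, a steroid reductase, at 5.44 FPKM in the control, 8.61 in library 1 and 2.84 in library 2. Its 6 genes with none of the 3′ UTR runs had a median of -0.089, on the other side. Viral protein interaction with cytokine and cytokine receptor had 0.22 over 12 genes, led by the decoy receptor TNFRSF10C at 6.38, 16.8 and 3.52 FPKM, but its median was -0.022 over 60 genes without a filter on low values. The p53 signaling pathway had 0.16 over 66 genes, a smaller median than that of the p53 target list, and its members ran from CDK6 at -2.12 to TP53I3 at 2.50. Vasopressin-regulated water reabsorption had 0.17 over 32 genes and Autophagy - other 0.21 over 30 genes.

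Tyrosine metabolism had a median of 0.18 over 13 genes, and both of its 2-fold genes were copper amine oxidases. AOC2 stood at 9.08 FPKM in the control, 15.2 in library 1 and 3.17 in library 2, and AOC3 at 3.24, 5.42 and 1.002 FPKM. They are neighbouring, similar genes, so their reads may be shared. The name Hippo signaling pathway - multiple species had 0.16 over 22 genes (-0.22 over the 6 with none of the 3′ UTR runs), led by YAP1, the coactivator at the end of that pathway, at 19.1, 37.2 and 11.01 FPKM. Its partner TEAD4 went the other way, at 14.03, 14.4 and 32.7 FPKM. The wider name Hippo signaling pathway had a median of -0.04 over 113 genes.

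GPI-anchor biosynthesis, which builds the glycolipid tail of surface proteins, had a median of 0.16 over 22 genes, 16 of them higher in library 1. PIGC, a subunit of the enzyme for the first step, stood at 11.9 FPKM in the control, 17.7 in library 1 and 3.94 in library 2. PIGW, an acyltransferase, was at 8.30, 20.5 and 6.64 FPKM. These were the members beyond 2-fold on the log2(FPKM + 1) scale. In FPKM, PIGV and DPM2, a mannosyltransferase and a subunit of dolichol-phosphate mannose synthase, were 2.63 and 2.01 times as high in library 1.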

How the data were processed

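FPKM values of 3 libraries were deposited by the authors as a table of 15625 genes, with KEGG names as annotation text (other values). The submitters' processing notes name HISAT2, Trimmomatic and GRCh38.p13; tool versions, counting program, strand setting and annotation: not given in the sources used here. A mean of at least 1 FPKM over the 3 libraries left 11216 genes. Differences are on the log2(FPKM + 1) scale, which understates low genes, and called means 2-fold.

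Values formed whole-number ratios between libraries for 100% of genes (relative tolerance 1e-12). The smallest such reads summed to 14632390 (control), 14832142 (library 1) and 15758794 (library 2); a factor common to a gene's 3 values is unseen, so true reads may be larger. Intervals are exact Clopper-Pearson 95% intervals of the library 1 share. Code was tested on simulated data.

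Named genes are the 25 farthest each way, up to 4 per list and described KEGG name, the 5 widest FPKM gaps each way and RAPGEF5; others are said to be chosen later. The members and the 30 lists were chosen with earlier results of these data known. Some genes are not reported here. Python 3.11.15, pandas 2.3.3 and scipy 1.17.1 were used.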

Additional observations from a re-analysis of the deposited data

How the results depend on the processing

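With 1 library on each side no library could be left out, and no paired analysis was possible because no test was made between samples. The count of 1008 genes at least 2-fold apart (495 higher in library 1, 513 in library 2) was 1519 with a pseudocount of 0.1 (805 higher in library 2) and 347 with a pseudocount of 5 (183 and 164). It was 2996 at 1.5-fold (1449 and 1547) and 54 at 4-fold (26 and 28). With a mean of at least 5 FPKM, 331 genes were higher in library 2, over the 8198 genes left. Among the 6987 genes with none of the 3 sets of 3′ UTR runs, an alternative chosen after seeing the data, it was 538 (246 and 292), and the share fell from 8.99% to 7.70%. The SD stayed between 0.418 and 0.709 over all alternatives.

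No difference of the 223 genes taken by the rule changed sign under another scaling, but the rule favours genes with large differences. Another pseudocount cannot change the sign of a gene's difference, so it tells nothing here. Of 348 medians of lists and KEGG names under alternatives, 279 moved by less than 0.1, and 7 whose reported size was at least 0.1 changed sign. Another 4 values of smaller medians changed sign, among them NRF2 target genes, which went from -0.08 to 0.01 without genes holding the 3′ UTR runs. NF-kB and chemokine genes went to 0.11 with the filter on the knockdown libraries alone. The cytokine receptor name went to -0.022 without a filter, and the globo and isoglobo name to 0.19 at a mean of at least 5 FPKM (4 genes). Without genes holding the 3′ UTR runs, NF-kB and chemokine genes went to 0.24, YAP-TEAD target genes to -0.43, steroid hormone biosynthesis to -0.089 and the Hippo signaling pathway - multiple species name to -0.22. There the p53 list stood at 0.78 (17 genes), endoplasmic reticulum stress genes at -0.68 and WNT target genes at -0.62, but MEK-ERK target genes at 0.08 (7 genes), S phase genes at -0.06, EMT genes at 0.04 and lysosome genes at -0.32. The cause was not tested. Arms of 1 library limit every value: depth was enough for the counting, but the spread between repeats of a library is unknown.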

Other observations

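Gene families picked after the values were seen gave further groups, described with no test. Beside them, 4.41% of all genes compared were 2-fold or more higher in library 1 and 4.57% in library 2. All 10 S100A genes compared were higher in library 1, 4 of them by 2-fold or more, with a median of 0.87. S100A4 stood at 469 FPKM in the control, 528 in library 1 and 164 in library 2, and S100A5 at 1.93, 7.97 and 0.387 FPKM. Of 11 keratins 10 were higher in library 2, 5 by 2-fold or more. Among these, KRT13 was low, at 0.430 FPKM in the control, 0.600 in library 1 and 3.60 in library 2. KRT81 was low too, at 0.286, 1.13 and 4.32 FPKM. KRT7, a keratin of ductal epithelia, was at 7.92, 12.7 and 38.4 FPKM, and KRT23 at 9.76, 4.31 and 12.2 FPKM.

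Of 8 laminin chains, 3 were 2-fold higher in library 1 and LAMB1, the beta 1 chain, was 2-fold higher in library 2, at 9.86 FPKM in the control, 6.49 in library 1 and 14.6 in library 2. LAMB2 was at 52.3, 39.3 and 13.2 FPKM. The 4 metallothioneins were divided: MT1E was at 544, 603 and 196 FPKM, and MT1F at 9.38, 0.427 and 4.97 FPKM. These genes are similar in sequence, so their counts are uncertain. Protein disulfide isomerases of the PDIA group were all higher in library 2, and PDIA3 stood at 121, 54.8 and 156 FPKM.

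Among the 22 chromosomes with at least 100 genes compared, the share of genes at least 2-fold apart ran from 2.68% to 13.1%. The ends of this ranking were chromosome 18 (149 genes) and chromosome 20 (306 genes), against 8.99% of all genes compared. Whether chromosomes differ was not tested.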
